A study of Mus musculus with 10 samples.

Results

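The genes described here encode the THO complex and the mRNA export factors that work with it. They are 10 of the 55487 gene records that were quantified by RNA-seq in mouse embryonic stem cells. The 10 are the rows carrying the Ensembl identifiers of Thoc1, Thoc2, Thoc3, Thoc5, Thoc6, Thoc7, Alyref, Chtop, Sarnp and Nxf1. The study developed BisMapR, a strand-specific way to map R-loops, in which an RNA pairs with one DNA strand and displaces the other. It holds 10 samples of the E14 line, an established line of mouse embryonic stem cells. Of these, 3 are RNA-seq replicates and 7 are R-loop samples, which were not analysed here. All 3 RNA-seq replicates belong to 1 group, so no condition could be compared. The cells carried no genetic change named in the labels and were kept in 15% fetal bovine serum with LIF, 3 µM of a GSK inhibitor and 1 µM of a MEK1/2 inhibitor. The labels do not say whether the replicates came from separate cultures, so the spread between them may be technical.

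THO is a multi-subunit complex that joins RNA polymerase II during elongation and coats the nascent transcript. With an RNA helicase (Ddx39b, also called UAP56) and adaptor proteins such as Alyref it forms TREX, the transcription-export complex. TREX hands the spliced and packaged mRNA to the Nxf1 receptor, which carries it through the nuclear pore. Loss of THO is known to raise R-loop levels in yeast and animal cells, where an RNA that is not packaged can return to its DNA template.

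Replicate 1 was the deepest library with 11420425 estimated counts, against 6467405 in replicate 2 and 5787357 in replicate 3. CPM divides a count by that total, and 3 counts correspond to 0.263 to 0.518 CPM. TPM, a transcript abundance, divides by gene length as well, and only TPM compares levels between genes. Genes with an effective length under 100 nt took 60.3%, 65.8% and 63.9% of TPM in replicates 1, 2 and 3, so the TPM left for longer genes differed between libraries. Markers of pluripotent stem cells were high, with 6 of 6 at a mean TPM of at least 1 and summed levels from 657.8 to 996.5 TPM. Of the fibroblast or feeder cell markers, 1 of 6 reached a mean TPM of 1 (Thy1, at 2.50), Col3a1, Dcn and Lum were at 0, and the list summed to 1.24 to 3.37 TPM. None of 7 markers of differentiated lineages reached 1, Foxa2 was at 0, and their sums were 0.89 to 2.04 TPM.

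All 10 genes had a mean TPM of 1 or more, beside 19.8% of all 55487 gene records and 44.2% of the 21897 protein-coding ones. Nxf1, the receptor, had the highest mean at 31.7 TPM, and Thoc6, a peripheral THO subunit, the lowest at 5.66 TPM. Among the 9680 protein-coding genes with a mean TPM of at least 1, this placed Nxf1 at percentile 90.8 and Thoc6 at percentile 49.6. The median of the 10 was 3.89, 3.91 and 3.64 on the log2(TPM + 1) scale in replicates 1, 2 and 3, with a mean of 3.81 ± 0.15 (SD, n = 3). The median of mean levels over the 9680 genes was 2.75 on that scale. On these values 9 of the 10 genes lay above the middle of the expressed range and Thoc6 just below it.

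**Figure D1:**
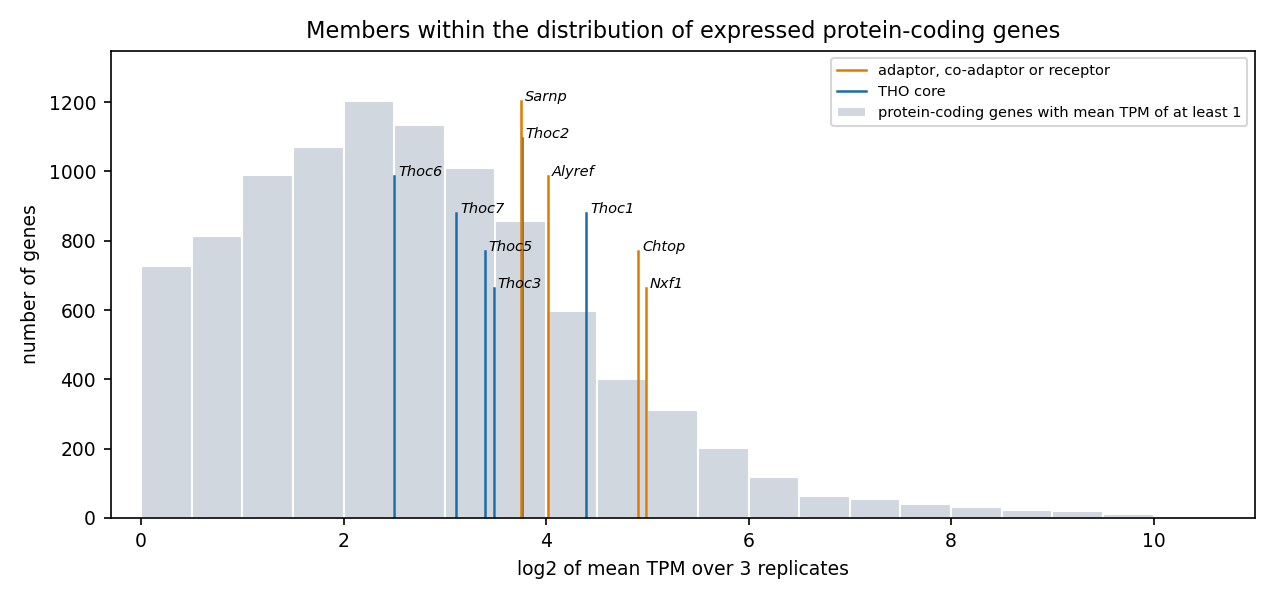
Number of protein-coding genes (y axis) by log2 of mean TPM over 3 replicates (x axis), for genes with a mean TPM of 1 or more. Lines mark the 10 genes, the THO core in blue and the others in orange, and their heights only separate the labels. The genes run from Thoc6 at 5.66 TPM to Nxf1 at 31.7 TPM, and 9 of 10 lie above the median of 5.73 TPM.

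The promoter sequences of the 2 genes at the top of this order are shown first, to set their letters side by side. Nxf1 (chromosome 19, 8757073-8770922, plus strand) and Chtop (chromosome 3, 90498956-90509498, minus strand) had the highest mean TPM. The 250 bases before the annotated start of each are given 5′ to 3′ on the gene's own strand. They overlap no annotated exon and were read from RefSeq GRCm38.p6 at chr19:8756823-8757072 and chr3:90509499-90509748. Capitals mark any match, on either strand, to one of 7 motifs: the TATA box is TATAAA, the CCAAT box is CCAAT, the GC box is GGGCGG, the ETS motif is CCGGAAG, the E-box is CACGTG, the NRF1 motif is GCATGCGC and the YY1 motif is AAGATGGC. No letter of one motif's match lay inside another's in these stretches.
Nxf1: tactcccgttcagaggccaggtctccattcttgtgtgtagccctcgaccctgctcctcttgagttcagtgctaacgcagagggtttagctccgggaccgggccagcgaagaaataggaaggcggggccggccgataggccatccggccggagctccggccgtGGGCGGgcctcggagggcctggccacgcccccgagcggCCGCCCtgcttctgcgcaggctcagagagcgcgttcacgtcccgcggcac
Chtop: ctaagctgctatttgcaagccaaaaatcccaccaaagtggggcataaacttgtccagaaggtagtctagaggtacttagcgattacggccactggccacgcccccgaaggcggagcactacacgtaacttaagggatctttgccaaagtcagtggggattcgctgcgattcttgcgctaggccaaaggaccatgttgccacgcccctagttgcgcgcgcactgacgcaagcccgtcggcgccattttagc
The Nxf1 stretch was 68.4% G or C, held 25 CpG dinucleotides and matched the GC box 2 times, the second match lying on the opposite strand. The Chtop stretch was 55.2% G or C, held 17 CpG dinucleotides and matched none of the 7 motifs. The 2 genes with the highest levels thus shared no match to these motifs in this window.

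By the outermost annotated start of each gene, 3 of the 10 genes (Thoc6, Thoc7 and Alyref) start head to head with another gene within 1000 bp. Of these 3, Alyref alone does not overlap that gene. Alyref (chromosome 11, 120592121-120598365, minus strand) starts 56 bp from Anapc11, a subunit of the anaphase-promoting complex. The bases between both starts, chr11:120598366-120598420 in RefSeq GRCm38.p6, are shown on the Alyref strand. Sarnp (chromosome 10, 128817333-128877629, plus strand) has its RefSeq start and the start of its coding transcripts inside the annotated gene, on the far side of Ormdl2, a regulator of sphingolipid synthesis on the opposite strand. By its RefSeq start, Sarnp is thus also head to head with Ormdl2 and does not overlap it. The bases between the RefSeq start of Sarnp and the start of Ormdl2, chr10:128821646-128821763, are shown on the Sarnp strand, with the same use of capitals.
Alyref and Anapc11: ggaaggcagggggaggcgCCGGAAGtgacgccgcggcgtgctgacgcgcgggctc
Sarnp and Ormdl2: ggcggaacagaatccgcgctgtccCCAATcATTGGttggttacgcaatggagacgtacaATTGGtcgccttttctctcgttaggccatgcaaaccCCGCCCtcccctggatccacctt
The 55 bases between Alyref and Anapc11 were 78.2% G or C, held 9 CpG dinucleotides and matched the ETS motif 1 time. The 118 bases between Sarnp and Ormdl2 held 8 CpG dinucleotides, 3 CCAAT matches (2 of them on the opposite strand) and 1 GC box on the opposite strand.

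Promoter windows of 300 bases (250 before to 50 after the RefSeq start) were found for 8 of the 10 genes, and Thoc1 and Thoc3 had none. GGGCGG was present in 5 of 8 (Thoc2, Thoc6, Alyref, Sarnp and Nxf1), beside 35.7% of all 32851 windows and 68.2% of the 7710 windows of expressed protein-coding genes. CCAAT was present in 3 of 8 (Thoc6, Alyref and Sarnp), beside 37.4% and 40.7%. CCGGAAG was present in 2 of 8 (Thoc5 and Alyref), beside 8.86% and 21.7%. The counts were thus close to what expressed genes in general hold. TATAAA was found in Alyref alone (13.6% and 5.93% of the windows) and AAGATGGC in Thoc2 alone (2.75% and 5.67%). No window held CACGTG (7.15% and 11.1%) or GCATGCGC (2.71% and 6.54%). These matches describe letters in the windows and show no binding.

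The windows also differed in base composition. Alyref had the most CpG-rich window, with an observed over expected CpG ratio of 1.38, at percentile 99.9 of the 7710 expressed genes. Thoc7 had the least, with a ratio of 0.362 at percentile 7.61. The median ratio was 0.822 over the 8 genes and 0.799 over the expressed genes. GC skew, the excess of G over C on the coding strand as a share of both, is a known sequence feature of regions that form R-loops. Over the 500 nt after the start it was above 0 in 7 of 8 genes (87.5%), beside 74.4% of expressed genes. It was highest in Thoc6 at 22.1%, followed by Nxf1 at 18.4%, Chtop at 17.9% and Alyref at 17.0%, and lowest in Thoc7 at -0.813%. The median was 14.7% over the 8 genes and 7.32% over the expressed genes. No R-loop signal was analysed at these sites.

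The 6 subunits of the THO core spanned 5.66 to 21.1 TPM, with a median of 10.8 TPM. Thoc1 (ENSMUSG00000024287, chromosome 18, 9957906-9995489, plus strand), the counterpart of yeast Hpr1, had 25.35, 20.49 and 17.34 TPM in replicates 1, 2 and 3. Its mean was 21.1 ± 4.04 TPM (SD, n = 3), the highest of the core, and its lowest replicate was above the highest replicate of each other core subunit. Its CPM, 81.3, 86.1 and 79.3, did not follow the order of its TPM.

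Thoc2 (ENSMUSG00000037475, chromosome X, 41794991-41920674, minus strand), the largest subunit and the backbone of the complex, had 16.79, 12.80 and 11.04 TPM, a mean of 13.5 ± 2.95. Thoc3 (ENSMUSG00000025872, chromosome 13, 54458837-54468849, minus strand), a WD-repeat subunit, had 13.18, 10.52 and 9.83 TPM, a mean of 11.2 ± 1.77. Thoc5 (ENSMUSG00000034274, chromosome 11, 4895320-4928867, plus strand), a coiled-coil subunit that also contacts Nxf1, had 12.56, 9.57 and 9.38 TPM, a mean of 10.5 ± 1.78. In each of these 3 genes replicate 1 was highest and replicate 3 lowest. Their ranges overlapped, although Thoc3 was above Thoc5 within 3 of 3 replicates by TPM. That order depended on the length used in each replicate. Thoc3 was above Thoc5 in 0 of 3 replicates by CPM and 1 of 3 with effective length fixed at its mean over replicates. With the length of the longest coding transcript it was above in 0 of 3.

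Thoc7 (ENSMUSG00000053453, chromosome 14, 13949012-13961852, minus strand), which pairs with Thoc5 as a coiled coil, had 8.73, 8.64 and 8.55 TPM. Its mean was 8.64 ± 0.09, the narrowest spread of the 10. Its CPM was 18.7, 22.1 and 21.6, a coefficient of variation (CV) of 8.73%, while counting error alone would give 7.89%. The TPM CV of 1.04% was smaller than counting error, and the deposited length of Thoc7 went from 1041.73 and 1018.85 to 903.05 nt over the same libraries.

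Thoc6 (ENSMUSG00000041319, chromosome 17, 23668614-23673882, minus strand), a WD-repeat subunit found in metazoan THO, had 6.53, 5.62 and 4.82 TPM, a mean of 5.66 ± 0.856. It was the lowest of the 10 within every replicate, and its range did not overlap that of Thoc7, the next above it. Its counts were 213, 131 and 107, and the smallest has an exact 95% Poisson interval of 87.7 to 129.3, for counting error only. Thoc6 also had the lowest CPM in every replicate (mean 19.1), so it was last with or without division by length. Its separation from Thoc7 did not hold by CPM. Thoc6 had 18.65, 20.26 and 18.49 CPM and Thoc7 18.74, 22.11 and 21.60, with 213 and 214 counts in replicate 1.

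The adaptors, co-adaptors and receptor had a higher median than the core, at 23.1 TPM, with a range of 13.5 to 31.7 TPM over 4 genes. Chtop (ENSMUSG00000001017), a co-adaptor that binds Nxf1 together with Alyref, had 34.90, 30.07 and 25.27 TPM, a mean of 30.1 ± 4.82. It had the highest CPM of the 10 in every replicate (178.0, 190.0 and 168.8). Chtop lay above Thoc1 within 3 of 3 replicates, although their ranges just met.

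Alyref (ENSMUSG00000025134), the adaptor that brings mRNA and Nxf1 together, had 14.42, 16.98 and 17.11 TPM, a mean of 16.2 ± 1.52. Replicate 1 was the lowest, unlike in 8 of the other 9 genes, where it was the highest. Sarnp (ENSMUSG00000078427), also called CIP29, a small TREX protein that binds Ddx39b, had 13.07, 15.47 and 11.82 TPM, a mean of 13.5 ± 1.85. Its highest replicate was replicate 2. Sarnp was the only one of the 10 with fractional counts (279.57, 226.9 and 180.9), meaning that some reads were shared out between genes, and 17.3% of 7825 comparable genes had them too.

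Nxf1 (ENSMUSG00000010097), the receptor, had 45.72, 26.77 and 22.51 TPM, a mean of 31.7 ± 12.4. Replicate 1 stood well above the other two, and the highest replicate was 2.03 times the lowest. Its CPM, 155.8, 141.8 and 133.6, differed by only 1.17 times. The mean that put Nxf1 above Chtop rested on replicate 1: Nxf1 was above Chtop in 1 of 3 replicates, and without replicate 1 its mean was 24.6 TPM against 27.7 for Chtop.

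**Figure D2:**
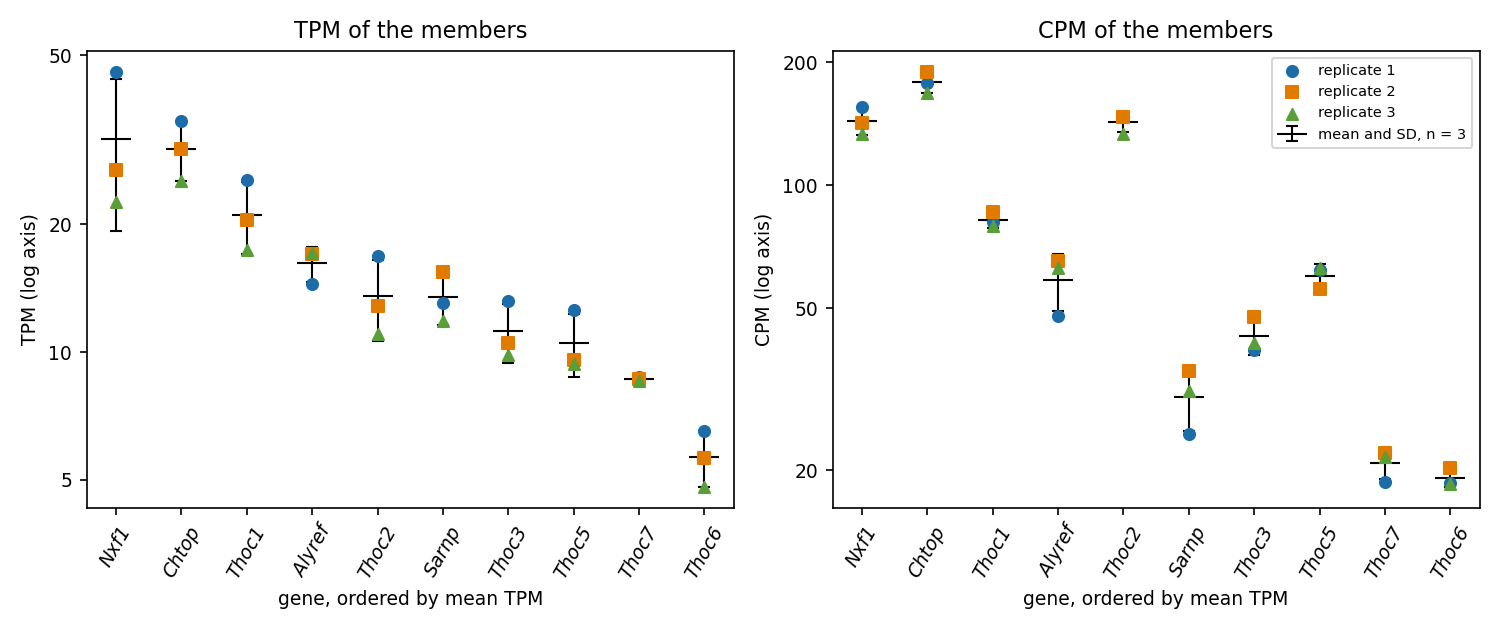
TPM (left) and CPM (right), both on log axes, of each gene in replicates 1, 2 and 3 (points), with the mean and SD over the 3 (black bars) and genes ordered by mean TPM. On the left the points of Thoc6 lie lowest at 4.82 to 6.53 TPM, those of Nxf1 spread from 22.51 to 45.72 TPM, and those of Thoc7 nearly coincide.

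The difference between the roles was measured inside each library. The median of the adaptors, co-adaptors and receptor exceeded the median of the THO core by 0.76, 1.02 and 0.96 on the log2(TPM + 1) scale in replicates 1, 2 and 3. The mean difference was 0.91 ± 0.13 (SD, n = 3), and all 3 replicates had the same sign. An exact sign-flip permutation test over 3 replicates cannot give a two-sided p below 0.25. The roles overlapped gene by gene, since Thoc1 was above Alyref and Sarnp in every replicate and Thoc2 lay level with Sarnp. The highest and lowest of the 10 genes were 2.35 ± 0.25 apart on the same scale.

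Ordered by mean TPM the genes were Nxf1, Chtop, Thoc1, Alyref, Thoc2, Sarnp, Thoc3, Thoc5, Thoc7 and Thoc6. The 10 genes make 45 pairs, of which 34 had ranges that did not overlap and 41 stood in the same order in every replicate. Between neighbours, the ranges were separate only for Thoc1 and Alyref, for Thoc5 and Thoc7, and for Thoc7 and Thoc6. The gap between Thoc1 and Alyref was narrow, from 17.34 to 17.11 TPM. By TPM, Nxf1, Chtop and Thoc1 thus formed the top and Thoc7 and Thoc6 the bottom. Among the others, Alyref lay above Thoc3 and Thoc5 with no overlap, while each neighbouring pair overlapped.

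The order also depended on which length was used. The deposited gene length is a mean over a gene's transcripts, weighted in RSEM by their estimated abundance, and each of the 86 transcripts listed for the 10 genes is in GENCODE vM21. For Alyref it was 1533.77, 1452.92 and 1247.55 nt, while its single protein-coding transcript has 3527 nt. The other 2 Alyref records, a processed transcript of 648 nt and a retained-intron record of 711 nt, are short. A mean length of this size therefore bounds the share of Alyref molecules assigned to the coding transcript at 29.2 to 30.8%, 26.3 to 27.96% and 19.1 to 20.8% in replicates 1, 2 and 3. Most Alyref TPM was thus assigned to the 2 short records in every replicate. These bounds hold for the weighting RSEM is known to use and leave out counting error.

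The lengths of Thoc3 and Nxf1 also differed between replicates. The Thoc3 length was 1399.05, 1684.67 and 1402.73 nt, which bounds its coding transcript of 2335 nt at 37.3 to 49.9%, 56.4 to 65.2% and 37.5 to 50.1% of molecules. Replicate 2 lay above the other two. The Nxf1 length was 1572.22, 1951.27 and 1942.35 nt, and its longest coding transcript of 4042 nt could hold at most 31.6%, 42.1% and 41.9%. Nxf1 has 4 coding transcripts among 10, of 505 to 4042 nt, so no lower bound was available for coding transcripts together. The replicate with the shortest Nxf1 length was the one with the highest TPM.

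Thoc1 had 11 retained-intron records beside 2 coding ones, and a mean length of 1487.19, 1578.39 and 1527.39 nt against 4134 nt for the longest coding transcript. That transcript could hold at most 28.9%, 31.3% and 30.0% of Thoc1 molecules. For Thoc5, Thoc6, Thoc7 and Sarnp the deposited length was 89.1 to 105.4% of the longest coding transcript. Over the 10 genes the median was 66.6%, beside 79.7% over 7825 protein-coding genes with a mean TPM from 1 and a mean count from 100. Isoform-level estimates were not analysed here, so how the remaining molecules divide is unknown.

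**Figure D3:**
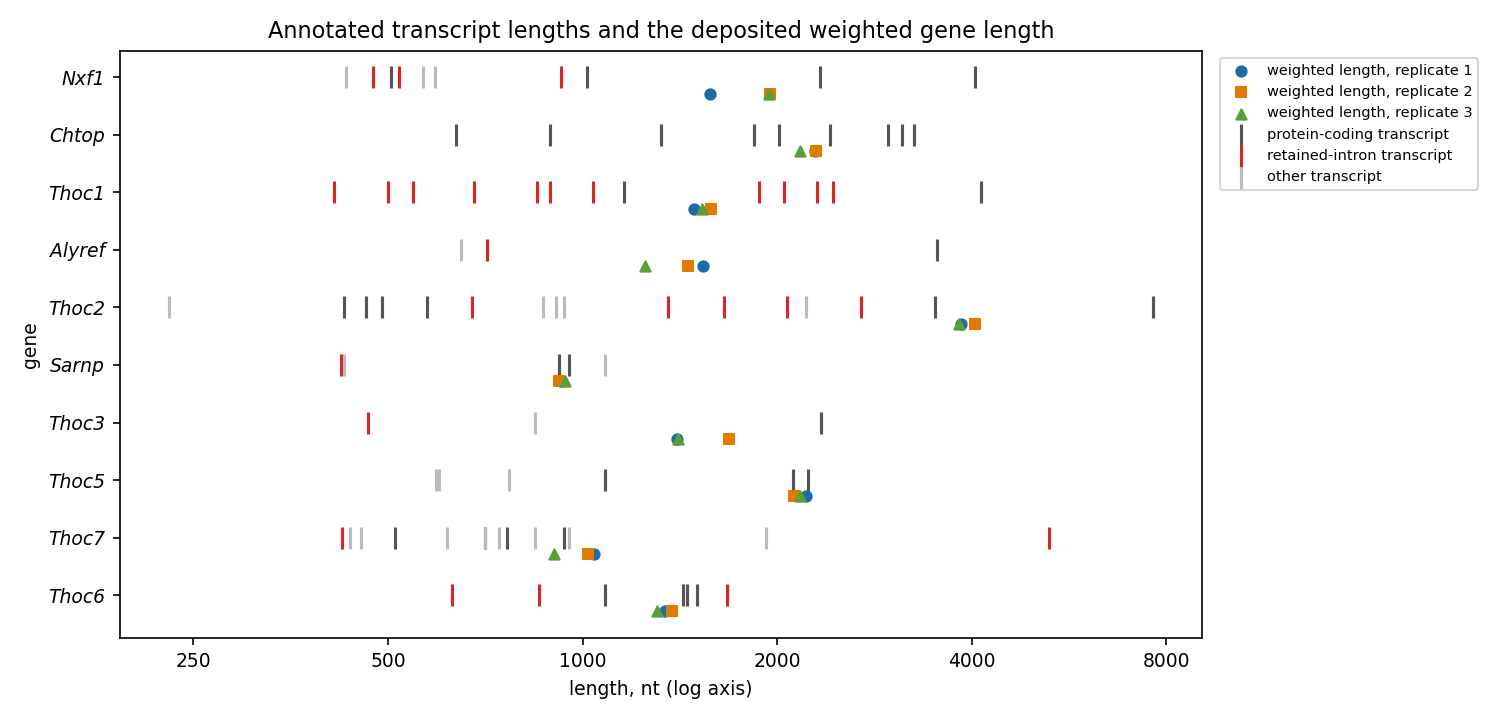
Annotated transcript lengths of each gene (ticks, in black for protein-coding, red for retained-intron and grey for other records) and the deposited weighted gene length in replicates 1, 2 and 3 (points), in nt on a log axis. The points of Alyref lie between its single coding transcript of 3527 nt and its 2 short records, and the point of Nxf1 in replicate 1 lies left of the other two.

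Placed on the length of the longest coding transcript, the level of Alyref was 6.04 ± 0.478 in place of 16.2 TPM. That of Thoc1 was 7.32 ± 1.26 in place of 21.1 TPM. These levels were not scaled back to the TPM total, so their size cannot be set directly against TPM. The order of genes within a library does not depend on that scaling. Chtop was then highest at 20.4 ± 3.79, followed by Nxf1 at 13.2 ± 3.27 and Sarnp at 13.0 ± 1.64. Alyref ranked 9 of the 10 on this scale and Thoc6 stayed last at 4.98 ± 0.824. Of the 45 pairs, 13 stood in the reverse order in every replicate on this length, and 6 did so by CPM. By their means Chtop and Nxf1 took the first 2 places, Thoc3 place 7 and Thoc6 the last on all 3 scales, while the others changed places. Sarnp stood at place 6 by TPM, 8 by CPM and 3 on coding length, Thoc5 at 8, 5 and 4, and Thoc7 at 9, 9 and 5. On coding length Thoc7, at a mean of 9.20, lay above Thoc1 in every replicate. The place of Nxf1 rested on 1 replicate outside TPM, since it was above Thoc2 by CPM, and above Sarnp on coding length, in 1 of 3 replicates each.

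The longest length exceeded the shortest by over 1.2-fold in 3 of the 10 genes, beside 22.5% of the 7825 genes, a limit set after the data were seen. These were Nxf1 at 1.24, Alyref at 1.23 and Thoc3 at 1.204, and the median was 1.06 over the 10 genes and 1.09 over the 7825. TPM was highest in replicate 1 and lowest in replicate 3 in 8 of 10 genes, beside 76.8% of the 7825. Alyref and Sarnp were the exceptions. The shared order of the 8 is thus the order of most genes in these libraries.

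Spread between replicates was smaller by CPM than by TPM in 7 of 10 genes, beside 89.1% of the 7825. The contrast was greatest for Nxf1, with a CV of 39.0% by TPM and 7.81% by CPM, where counting error alone would give 2.94%. Thoc7, Sarnp and Alyref went the other way, and Alyref had 9.38% by TPM and 15.96% by CPM. The median CV of the 10 genes was 15.9% by TPM and 7.18% by CPM, beside 23.4% and 11.2% over the 7825.

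None of the 10 was called as spreading between replicates beyond genes of like abundance. This was tested with edgeR's goodness-of-fit test, which asks whether a gene's counts deviate more than the dispersion trend over all genes allows. After Benjamini-Hochberg adjustment 0 of 10 passed 0.05, beside 1.84% of the 12577 genes tested, and the adjusted p of each was 1.00. At an unadjusted p under 0.05 there were also 0 of 10, beside 6.96%. The smallest unadjusted p-values were 0.170 for Alyref and 0.194 for Sarnp, from edgeR. Without replicate 3 they were 0.0177 and 0.0142, while no adjusted p among the 10 was below 0.759.

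Alyref and Sarnp shared the direction of their deviations. On TMM-scaled log2 CPM, Alyref lay at -0.35, 0.12 and 0.23 around its own mean in replicates 1, 2 and 3, and Sarnp at -0.36, 0.18 and 0.18. Both were low in replicate 1, the deepest library. The other 8 genes lay between -0.22 and 0.05 in replicate 1, and 9 of the 10 were below their mean there. In replicate 3 all 10 were above their mean, by 0.01 to 0.23. The shares of all genes on each side were not computed. A gene's deviations balance out over the 3 replicates, so low values in replicate 1 go with higher ones elsewhere. The median deviation of the 10 was -0.097, 0.041 and 0.067 in replicates 1, 2 and 3, beside -0.0020, 0.0076 and 0.0085 over 8296 genes with a mean count of at least 100. Across the 10 genes, Spearman's rho between the deviation and the gene's length was 0.85, -0.70 and -0.65 in replicates 1, 2 and 3. No such rho was computed over all genes, and the 3 values are not separate results, because a gene's deviations balance out. The deviations and rho values describe 10 genes that share the same 3 libraries and carry no test. The part of length in the deviations was not tested.

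**Figure D4:**
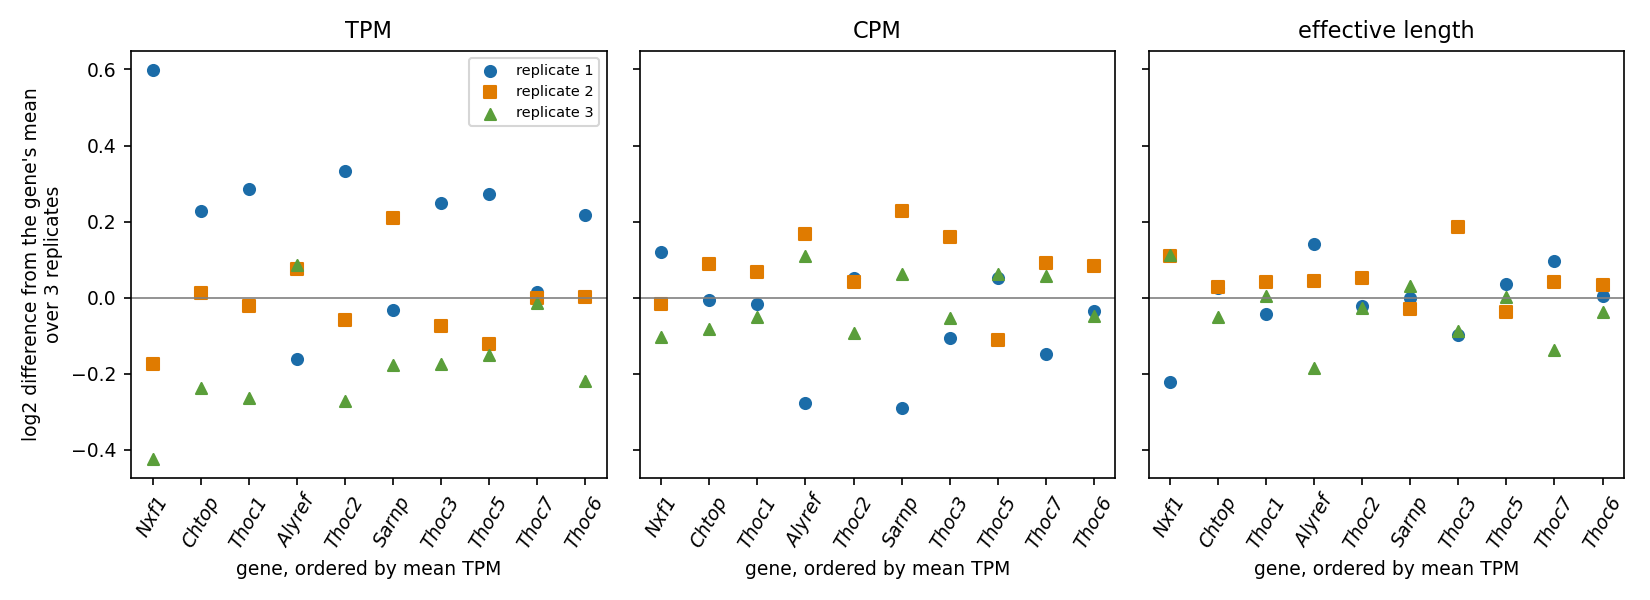
Difference (log2) of each gene's TPM, CPM and effective length in replicates 1, 2 and 3 from its own mean over the 3, with genes ordered by mean TPM. CPM is scaled here by the library total, not by TMM. Replicate 1 lies highest by TPM in 8 of 10 genes and lies lowest by CPM in Alyref, Sarnp, Thoc3 and Thoc7.

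Some of the genes overlap a neighbour in their annotated spans, which include introns. How much of each overlap lies in exons was not measured, so transcripts may share less sequence than the spans do. For Sarnp, both overlaps below exceed its longest transcript, of 1084 nt. The strand setting of the counting is not given in the sources used here. Reads over exons that overlap on opposite strands may thus be counted for either gene. Thoc6 and Hcfc1r1 (10.95 ± 3.59 TPM) overlap by 287 bp at their starts, and Thoc7 and Atxn7 (0.77 ± 0.187 TPM) by 413 bp. Counts of each of these genes were whole in every replicate. Alyref and Anapc11 (12.6 ± 0.551 TPM) do not overlap. A further 3 overlaps were picked after the values were seen: Thoc1 with Usp14 on the opposite strand (2424 bp, 27.5 ± 6.92 TPM), Sarnp with Ormdl2 on the opposite strand (3744 bp, 28.4 ± 2.60 TPM) and Sarnp with Dnajc14 on its own strand (2114 bp, 4.11 ± 0.460 TPM). Counts of Thoc1, Usp14 and Dnajc14 were whole, and those of Ormdl2 were 581.99, 384 and 368 in replicates 1, 2 and 3. Those of Sarnp were fractional in every replicate, so the Sarnp level depends on how shared reads were divided. In replicates 2 and 3 neither Ormdl2 nor Dnajc14 was fractional, so which genes share the Sarnp reads is not shown by these overlaps. Of the 3 pairs that are head to head by outermost start, Thoc7 and Atxn7 differed most in level (8.64 and 0.77 TPM). Thoc6 had 5.66 TPM beside Hcfc1r1 and Alyref 16.2 TPM beside Anapc11.

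The rest of the export pathway was broadly expressed. Of 40 records for 39 genes, 37 reached a mean TPM of at least 1, and the median was 11.8 TPM, near the 13.5 TPM of the 10. The helicases that load on mRNA with THO were both present, Ddx39b at 29.7, 23.9 and 16.5 TPM (mean 23.4 ± 6.65) and its paralogue Ddx39a at 41.4, 37.0 and 34.2 TPM (mean 37.5 ± 3.62). Ddx39a was higher in every replicate. Ddx39b had fractional counts, so its level depends on how shared reads were divided.

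Paralogues of the receptor and adaptor were low. Alyref2, a relative of Alyref, had 2, 3 and 2 counts and 0.0967 TPM, at or below the 3-count limit in each library. Among relatives of Nxf1, Nxf2 had 0.117 TPM, Nxf7 0.697 and Nxf3 1.34. Nxt1, the small partner that Nxf1 needs to bind the pore, had 10.6, 10.9 and 8.39 TPM, a mean of 9.96 ± 1.37, and its paralogue Nxt2 had 8.07 ± 2.18. Both partners lay below Nxf1 in every replicate.

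The SR proteins that act as adaptors held the highest level of the list, Srsf3 at 80.4 ± 8.01 TPM, and 3 of 3 were expressed. Srsf3 had fractional counts, as did 11 of the 40 records in all, so its level depends on how shared reads were divided. All 6 TREX-2 genes, all 3 cap-binding genes, all 5 exon junction complex genes and all 8 pore and release genes reached a mean TPM of 1. Zc3h11a is listed as 2 overlapping records with fractional counts, at 28.6 ± 11.6 and 1.02 TPM, and both are uncertain. Under other settings of edgeR's goodness-of-fit test these records were also called as varying beyond the trend: the first had an adjusted p of 0.343 in the fit reported here, 0.0132 with length offsets and 0.0104 without replicate 3, and the second, which was under the count filter, 1.36e-25 with no filter. Of 37 records tested, 1 varied beyond the trend in the fit reported here, beside the 1.84% of all genes. This was Nup214, a nucleoporin on the cytoplasmic face of the pore where export complexes are released. It had 116.6, 102.4 and 42.0 CPM and 16.6, 11.9 and 4.26 TPM, lowest in replicate 3, with an adjusted p of 0.0181 by edgeR's goodness-of-fit test. The call held in that edgeR test with length offsets (adjusted p 0.0126), DESeq2 size factors (0.0184) and no count filter (0.0267). The call ended when a replicate was left out, with an edgeR adjusted p of 0.106 without replicate 1, 0.146 without replicate 2 and 1.00 without replicate 3.

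**Figure D5:**
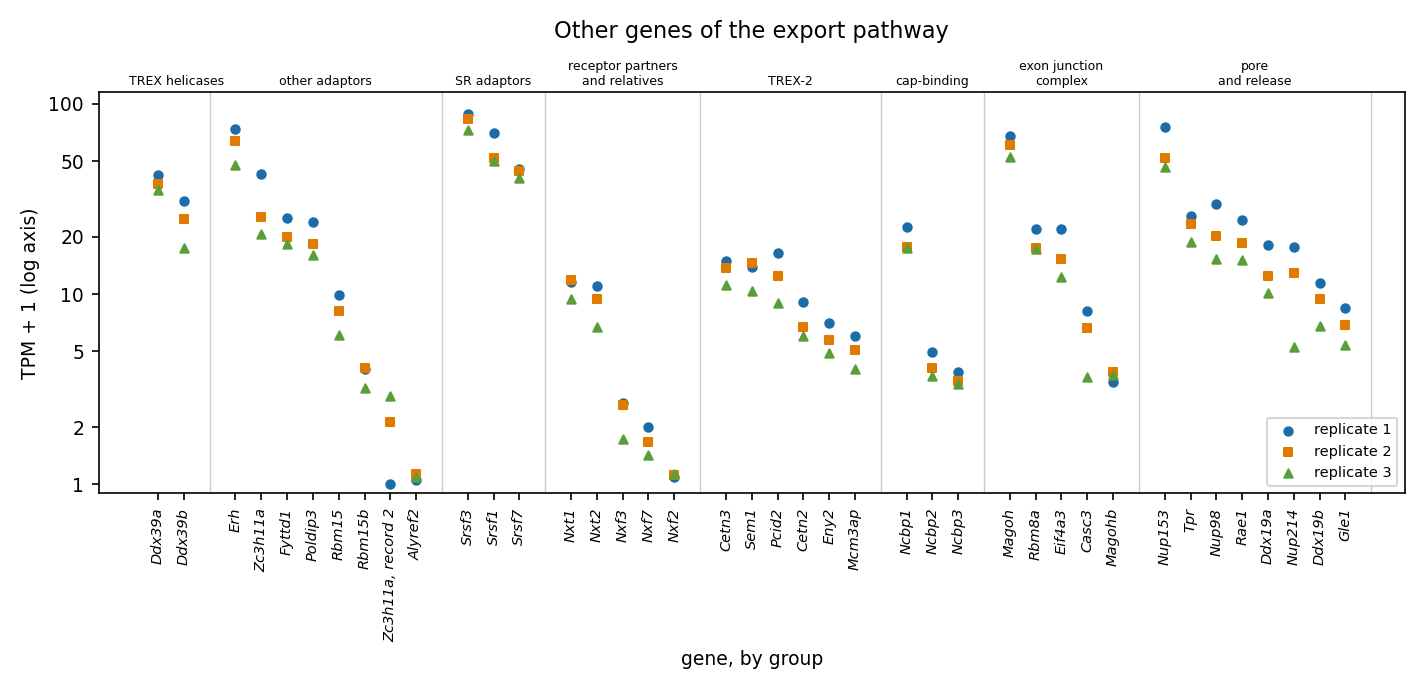
TPM + 1 (log axis) of the other export genes in replicates 1, 2 and 3 (points), grouped by role. Srsf3 is highest at a mean of 80.4 TPM, Alyref2 is lowest at 0.0967 TPM, and Nup214 has a replicate 3 point at 4.26 TPM below the other two.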

How the data were processed

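RNA-seq of 3 replicates of 1 group was analysed, with group and replicate number taken from the titles. Libraries were rRNA-depleted and directional, per the labels' protocols. STAR and RSEM, without versions, and build mm10 are named in the submitters' processing notes; the annotation release and strand setting are not given in the sources used here. The authors deposited unnormalized estimated counts (expected counts) per gene. The authors also deposited TPM, scaled by effective length and to the same total in each library, and FPKM, used only as an alternative. Per the file headers, length and effective length are given for each gene.

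Names, transcripts and coordinates came from GENCODE vM21 (GRCm38), which matched 55141 of 55487 IDs, and promoters from RefSeq GRCm38.p6. Counts were rounded for edgeR 4.0.16 (R 4.3.3), with filterByExpr, TMM and an intercept-only design. A goodness-of-fit test against the trended dispersion used Benjamini-Hochberg adjustment over all genes tested. The test was also run on counts simulated from that fitted trend, which cannot show how often genes scattered around it are called. Set levels used log2(TPM + 1). The rest ran in Python 3.11.15 (pandas 2.3.3, numpy 2.4.6, scipy 1.17.1; figures in matplotlib 3.10.9). Intervals and the 3-count limit cover counting error only. The text names the 10 genes, head-to-head neighbours, and from the export list the helicases, Nxt1, Alyref2, the highest, the lowest and any that varied beyond the trend; Nxt2, Nxf2, Nxf3, Nxf7, Zc3h11a, Usp14, Ormdl2 and Dnajc14 were added after their values were seen. The members and lists were chosen with earlier results of these data known. Alternatives were DESeq2 1.42.0 size factors, no count filter, length offsets, CPM, FPKM, other pseudocounts, denominators and lengths, and each replicate left out.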

Additional observations from a re-analysis of the deposited data

How the results depend on the processing

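Over 67 alternatives for 15 results, 6 of them chosen after seeing the data, 61 values were labelled the same, 6 moved further and 0 reversed. The same meant a move of less than the replicate SD or, for counts of genes, of at most 1.5-fold. Leaving out 1 of 3 replicates cannot move a mean over them by as much as their SD. The 30 such values for single genes, and those for the set levels, were thus fixed in advance. Only the difference between roles could reverse in sign. The median log2(TPM + 1) of the 10 genes, 3.81, became 5.20 with short genes out of the denominator, 5.25 by FPKM and 3.19 on the longest coding transcript. Levels on that transcript were not scaled back to the TPM total. On that transcript the difference between roles was 0.78 and the distance from highest to lowest 1.83, which was 3.16 by CPM. Leaving out each replicate gave 3.76 to 3.90 for the median, 0.86 to 0.99 for the difference and 2.20 to 2.43 for the distance. The 10 expressed genes and the 0 beyond the trend stayed at 10 and 0 in every alternative run. The edgeR calls over all genes were 232, and 231 with DESeq2 size factors, 289 of 24217 without a filter, 176 with length offsets, and 89, 63 and 93 without replicates 1, 2 and 3. No paired analysis was possible because there is 1 group. Depth limits Thoc6 and Thoc7 most, at 107 and 125 counts in the shallowest library.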
